A study of Mus musculus with 8 samples.

Results

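The genes described are the NF-kB transcription factor subunits Nfkb1, Nfkb2, Rel, Rela and Relb, the inhibitors Nfkbia, Nfkbib and Nfkbie, the feedback enzyme gene Tnfaip3, and Bcl3, an atypical inhibitor that acts in the nucleus. They were chosen by symbol, 10 genes in all, from 16593 genes named by the probe annotation. No probe carried the symbol Nfkb1, which was not analysed here. The other 9 genes had 10 probes among 25697, of which 9 probes, 1 per gene, passed the detection filter. The second Nfkbie probe had a detection p-value under 0.01 on 0 of 8 arrays, and its log2 values ran from 4.83 to 5.28.

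RNA came from CD4+ T cells of C57BL6/NCrl mice, taken from lymph nodes and spleen and negative for CD44, CD25 and DX5, with CD62L on their surface. Every culture was stimulated through CD3e, by an antibody fixed to the plate, and through CD28, by an antibody in solution. The plates also carried control Ig or Delta4-Ig, a recombinant form of the Notch ligand Delta4. Ages and sexes of the mice are not given in the sources used here. Day 1 holds only mouse 1, with 1 sample per stimulus, and day 3 holds mouse 1 and mouse 2. Mouse 1 was hybridised on 2 arrays per stimulus at day 3, which the labels call technical replicates and which were averaged as 1 sample. The 8 Illumina bead arrays, all on 1 chip, therefore hold 6 samples of 2 mice. With at most 2 mice per group, p-values set a difference only against the spread among these samples. In fits with mouse as a factor, that spread is how far the day 3 stimulus difference varied between the mice. It is moderated in limma by a spread shared over all kept probes.

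NF-kB dimers are held in the cytoplasm of resting cells by inhibitors built of ankyrin repeats. Signals from the T cell receptor, CD28 and receptors of the TNF family lead to breakdown of the inhibitors, and the dimers enter the nucleus. Many genes of the family, inhibitors included, are themselves transcribed under NF-kB control, so the pathway limits its own activity. Bcl3 binds dimers of p50 or p52, the products of Nfkb1 and Nfkb2, on DNA and can raise or lower transcription.

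Promoters are shown for Bcl3, the member that passed a test, and for the 3 members at least 2-fold lower with Delta4-Ig at day 3, by their mean and without passing, whose windows hold a match to the NF-kB (kB site) consensus. Each is a RefSeq window from GRCm38.p6, 250 bases before to 50 after an annotated start, written 5′ to 3′ along the gene, with bases matching the consensus on either strand in capitals. Bcl3 lies at chr7:19822706-19823005 on the minus strand, the first Nfkb2 window at chr19:46304487-46304786 on the plus strand, Rel at chr11:23770920-23771219 on the minus strand and Nfkbie at chr17:45555450-45555749 on the plus strand.
Bcl3: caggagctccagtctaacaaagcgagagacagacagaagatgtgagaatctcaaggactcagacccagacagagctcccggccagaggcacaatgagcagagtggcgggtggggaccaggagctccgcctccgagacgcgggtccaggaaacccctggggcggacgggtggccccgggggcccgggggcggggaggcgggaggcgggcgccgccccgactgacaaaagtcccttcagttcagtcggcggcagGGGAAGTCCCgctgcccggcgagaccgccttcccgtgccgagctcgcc
Nfkb2: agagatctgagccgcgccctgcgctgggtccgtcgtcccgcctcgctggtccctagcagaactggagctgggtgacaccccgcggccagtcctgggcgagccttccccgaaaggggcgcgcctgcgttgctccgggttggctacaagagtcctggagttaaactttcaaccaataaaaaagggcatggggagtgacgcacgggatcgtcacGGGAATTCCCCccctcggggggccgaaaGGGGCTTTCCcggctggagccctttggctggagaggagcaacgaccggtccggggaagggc
Rel: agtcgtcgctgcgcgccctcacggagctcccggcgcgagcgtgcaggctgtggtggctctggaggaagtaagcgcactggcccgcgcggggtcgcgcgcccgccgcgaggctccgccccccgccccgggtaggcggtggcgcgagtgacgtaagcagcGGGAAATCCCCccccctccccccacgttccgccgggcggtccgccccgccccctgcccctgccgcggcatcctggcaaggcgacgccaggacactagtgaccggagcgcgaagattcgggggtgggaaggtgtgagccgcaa
Nfkbie: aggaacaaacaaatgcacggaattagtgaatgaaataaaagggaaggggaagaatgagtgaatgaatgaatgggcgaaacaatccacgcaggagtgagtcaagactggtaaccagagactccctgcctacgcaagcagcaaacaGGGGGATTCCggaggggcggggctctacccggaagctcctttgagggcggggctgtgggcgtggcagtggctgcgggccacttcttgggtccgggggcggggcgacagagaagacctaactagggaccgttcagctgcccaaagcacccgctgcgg

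The 10-letter consensus was found in 8 of the 11 windows of these genes and in 6 of the 8 genes that have a window. Of all 32851 windows, 4.51% held it, a share per window and not per gene. The Nfkb2 windows that start at chr19:46305445 and chr19:46305680 overlap, so the same GGGACTTTCC is counted in both. In the Nfkb2 window shown a palindrome, GGGAATTCCC, begins 39 bases before the start and counts on both strands. It comes with another match shifted by 1 base and a separate GGGGCTTTCC. The Rel match likewise reads on both strands, with a further match shifted by 1 base, and the Bcl3 match lies just after the start on the reverse strand as GGGACTTCCC. Nfkbia (GGGAATTTCC, reverse strand) and Tnfaip3 also held matches, and the windows of Rela and Nfkbib held none. A match describes letters in a window and is not a measured binding site.

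Between 8940 and 10543 probes were detected per array, 34.8% to 41.0% of the total. All 9 member probes were detected on all 8 arrays. Of 7 T cell genes with a probe (Cd2, Cd3d, Cd3e, Cd3g, Cd4, Cd5 and Thy1), 7 were detected in each sample. Their summed linear level was 35400 to 38900 at day 1, 41900 and 53700 with control Ig at day 3, and 42700 and 80300 with Delta4-Ig. Markers of myeloid cells were detected at 0 of 7 in every sample, with a summed level of 190 to 226, and those of red cells and platelets at 0 of 4. B cell markers were detected at 0 or 1 of 6, with Cd79a, Ms4a1, Blnk and Pax5 on 0 arrays, Cd79b on 1 and Fcer2a on 2. Dendritic cell markers were detected at 0 or 1 of 5, with a summed level of 176 to 291. Siglech was detected on 5 arrays, at up to 7.40 on the log2 scale, and Itgax, Flt3, Xcr1 and Clec9a on 0. Cd4 read 7.69 to 8.26 on the log2 scale over the arrays. Cd8a was detected on 0 arrays and Cd8b1 on 8, at 9.13 to 10.56, and the part of other T cells was not tested. Of 5 NK cell markers 1 or 2 were detected, with Nkg7 on 8 arrays, Klrd1 on 4, and Ncr1, Klrb1c and Klre1 on 0. Between the stimuli at day 3 Klrd1 differed by 0.20 in mouse 1 and 1.96 in mouse 2, and Nkg7 by 0.26 and 1.58. The summed level of the NK cell list was 457 and 700 at day 1. At day 3 it was 4590 and 6120 with control Ig and 7280 and 13700 with Delta4-Ig, and its part in the results was not tested. In such bulk RNA, fewer cells expressing a gene and less RNA per cell cannot be told apart.

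**Figure D1:**
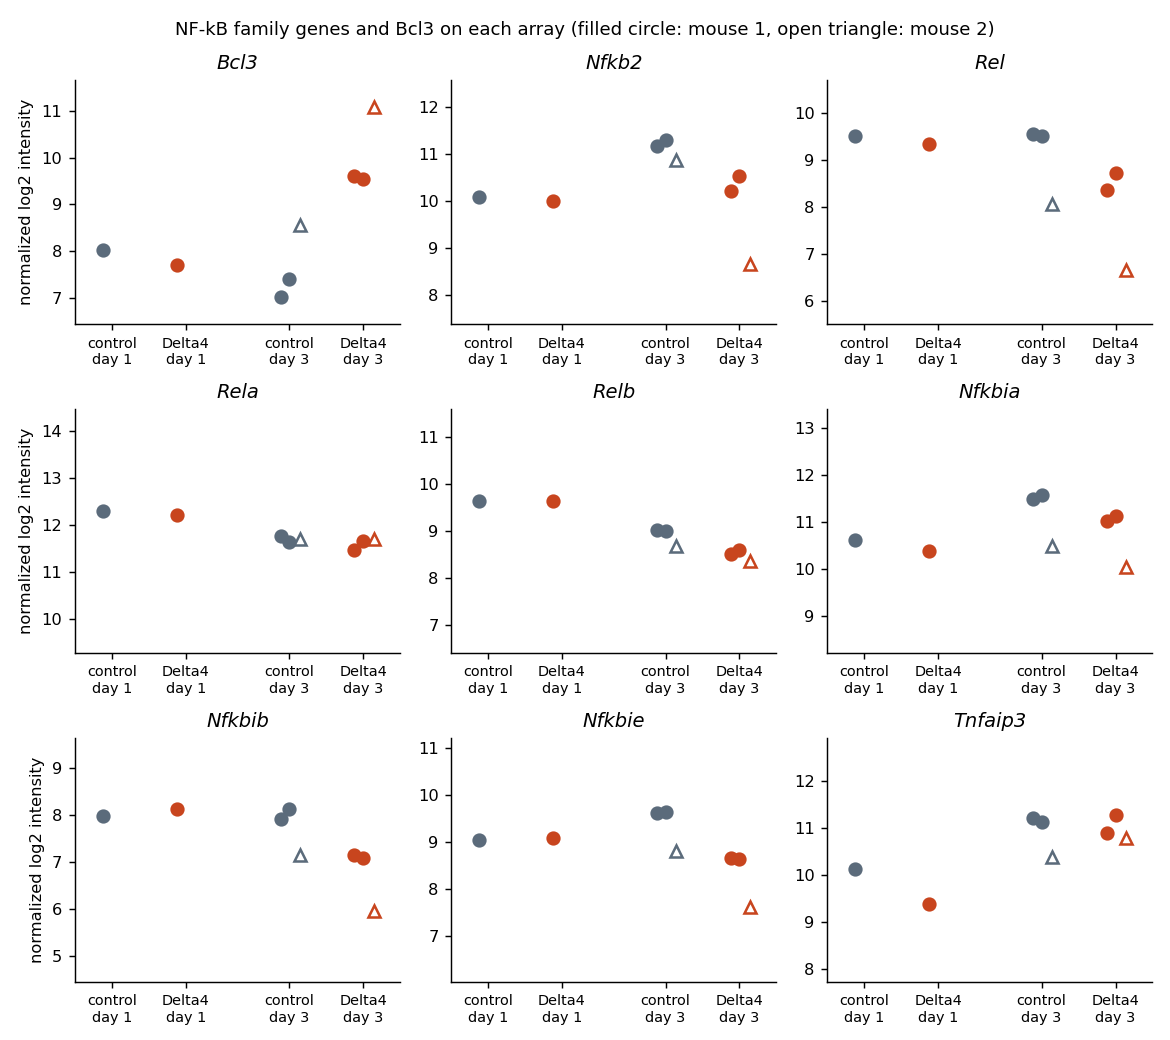
Normalized log2 intensity of each member on every array, by stimulus and day, with mouse 1 as filled circles and mouse 2 as open triangles. Each panel spans the same height on its own level. The Bcl3 points with Delta4-Ig at day 3 lie between 9.54 and 11.08, above all control points, while at day 3 the Delta4-Ig samples of Nfkb2, Nfkbib, Nfkbie and Relb lie below the day 3 control samples.

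Bcl3 was the member that differed most between the stimuli at day 3, and in the opposite direction from most of its family. On the normalized log2 scale it read 7.03 and 7.42 on the control Ig arrays of mouse 1 and 8.56 in mouse 2. With Delta4-Ig it read 9.60 and 9.54 in mouse 1 and 11.08 in mouse 2. Every Delta4-Ig array lay above every control array, although mouse 2 stood higher than mouse 1 under both stimuli. Group means were 7.89 ± 0.945 (SD, n = 2 mice) with control Ig and 10.33 ± 1.07 (SD, n = 2 mice) with Delta4-Ig.

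The difference in Bcl3 was 2.43 on the log2 scale, or 5.40-fold, and was alike in the mice, at 2.34 in mouse 1 and 2.52 in mouse 2. Bcl3 rose in the blocked limma fit, in which mouse is a factor (SE 0.31, adjusted p = 0.0196), where 0.763% of 10744 probes passed, 0.465% higher and 0.298% lower. Without the block its SE was 0.717 and its limma adjusted p = 1. That fit called 0% of probes, with 302 at an unadjusted p under 0.05, Bcl3 among them. The blocked call did not hold without background correction (difference 1.89, limma adjusted p = 0.149) or when all probes were tested without a detection filter (limma adjusted p = 0.293). An exact permutation test of 2 against 2 samples cannot give a two-sided p below 0.333, so none was run.

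Of the 8 other members with a probe, none passed at day 3 with limma in either fit. In the blocked fit 4 of them had an unadjusted p under 0.05, namely Nfkb2, Rel, Nfkbib and Nfkbie, all lower with Delta4-Ig. Of all 10744 detected probes, 1034 had such a p in that fit, in either direction. Counting all 9 members, 6 were lower with Delta4-Ig in both mice, against 31.5% of all detected probes. Complete separation of the samples, Delta4-Ig below control Ig, was found for 4 of the 9 (Nfkb2, Nfkbib, Nfkbie and Relb) against 12.4% of probes. Separation in the other direction was found for 1, Bcl3, against 12.6%. The median difference of the 9 members was -0.46 and that of all detected probes was -0.05. The members were chosen with earlier results of these data known, so these shares and medians are a description and not a test.

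**Figure D2:**
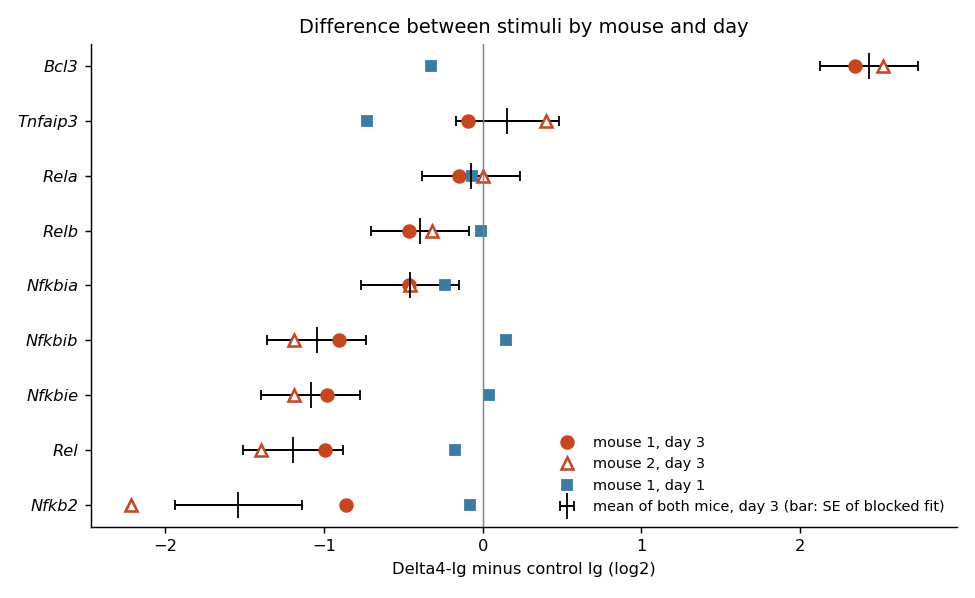
Difference between Delta4-Ig and control Ig on the log2 scale for each member, in mouse 1 and mouse 2 at day 3 and in mouse 1 at day 1. The vertical tick is the mean of both mice at day 3 and its bar is the SE of the blocked fit. Bcl3 stands at 2.43 and Nfkb2 at the other end at -1.54, while the day 1 squares lie between -0.73 and 0.15.

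Among the subunits, Nfkb2, the precursor p100 that is cut to p52, had the most negative difference. Its control arrays at day 3 read 11.16 and 11.29 in mouse 1 and 10.88 in mouse 2, and its Delta4-Ig arrays 10.20 and 10.54 in mouse 1 and 8.66 in mouse 2. The stimuli did not overlap, but the size was uneven, -0.86 in mouse 1 and -2.22 in mouse 2. The mean difference was -1.54 ± 0.40 (SE of the blocked limma fit, adjusted p = 0.194), a 2.91-fold lower level.

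Rel encodes c-Rel, the subunit that lymphocytes induce on activation. It read 9.56 and 9.52 in mouse 1 and 8.06 in mouse 2 with control Ig at day 3, and 8.37 and 8.72 in mouse 1 and 6.67 in mouse 2 with Delta4-Ig. Within each mouse the Delta4-Ig value was lower, but mouse 1 with Delta4-Ig lay above mouse 2 with control Ig, so the groups overlapped. The mean difference was -1.20 ± 0.32 (SE of the blocked limma fit, adjusted p = 0.208).

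Rela, which encodes the widely expressed p65, read 11.77 and 11.64 in mouse 1 and 11.69 in mouse 2 with control Ig, and 11.46, 11.65 and 11.69 with Delta4-Ig. The 2 samples of mouse 2 had the same value, and the mean difference was -0.07 with a 95% interval from -0.80 to 0.65 in the blocked fit. Relb, the usual partner of p52, was 8.85 ± 0.228 (SD, n = 2 mice) with control Ig and 8.46 ± 0.127 (SD, n = 2 mice) with Delta4-Ig. Its samples did not overlap, and its difference of -0.39 had an interval from -1.12 to 0.34.

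The classical inhibitors differed in size. Nfkbib, which encodes IkB-beta, read 7.91 and 8.12 in mouse 1 and 7.15 in mouse 2 with control Ig, against 7.14, 7.08 and 5.96 with Delta4-Ig. Its difference was -0.90 in mouse 1 and -1.19 in mouse 2. Nfkbie, the gene of IkB-epsilon, read 9.63 and 9.64 in mouse 1 and 8.81 in mouse 2 with control Ig, against 8.66, 8.64 and 7.62. It differed by -0.98 in mouse 1 and -1.19 in mouse 2.

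Both genes were thus close to 2-fold lower in each mouse, with means of -1.05 ± 0.31 and -1.08 ± 0.31 (SE of the blocked limma fit, adjusted p = 0.285 and 0.258). Without background correction these means shrank to -0.50 and -0.79. The Nfkbib value of 5.96 in mouse 2 with Delta4-Ig lay near background, with a detection p-value of 0.00627. Nfkbia, which encodes IkB-alpha, the inhibitor that is resynthesised fastest after a stimulus, read 11.54 in mouse 1 and 10.50 in mouse 2 with control Ig and 11.07 and 10.04 with Delta4-Ig. The stimuli overlapped, with the mice 1.03 to 1.04 apart in size, and the difference was -0.46 in each mouse, with an interval from -1.18 to 0.27. Tnfaip3 encodes A20, an enzyme that edits ubiquitin chains and shuts off signalling to NF-kB. It differed by -0.09 in mouse 1 and 0.40 in mouse 2, and the interval of its mean difference of 0.16 ran from -0.60 to 0.91.

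The mice differed from each other in most of these genes. Within both stimuli at day 3, 7 of the 9 members were lower in mouse 2 than in mouse 1, against 39.2% of detected probes. For Rel the difference between the mice was -1.48 with control Ig and -1.88 with Delta4-Ig, and for Nfkbia it was -1.04 and -1.03. Nfkb2 was -0.35 apart with control Ig and -1.71 with Delta4-Ig. Bcl3 went the other way, at 1.34 and 1.52. The members that were higher in mouse 2 or lower in mouse 2 were thus, apart from Rela and Tnfaip3, those that were higher or lower with Delta4-Ig. The median size of the mouse difference was 0.83 with control Ig and 1.03 with Delta4-Ig for the 9 members, and 0.39 and 0.62 for all detected probes.

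**Figure D3:**
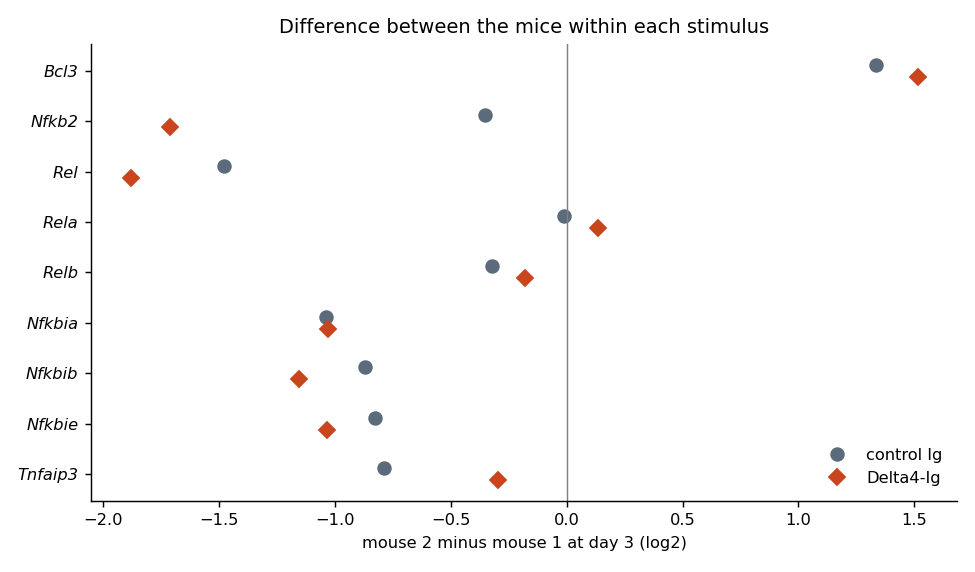
Mouse 2 minus mouse 1 at day 3 on the log2 scale, with control Ig as circles and Delta4-Ig as diamonds. Bcl3 is the member above 0 under both stimuli, at 1.34 and 1.52, and Rela lies near 0.

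At day 1 the stimuli lay close together. With 1 sample each there is no test and no replicate check. Of the 9 members 0 were at least 2-fold apart, against 1.51% of detected probes. Bcl3 read 8.03 with control Ig and 7.70 with Delta4-Ig, a difference of -0.33. Its technical arrays of mouse 1 at day 3 differed by 0.39 with control Ig and by -0.06 with Delta4-Ig. Tnfaip3 was furthest apart, at 10.12 and 9.39, a difference of -0.73. Its technical arrays differed by -0.09 with control Ig and 0.37 with Delta4-Ig. Differences of the other 7 members ran from -0.24 to 0.15.

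The change of the Delta4-Ig effect from day 1 to day 3 was tested as an interaction. For Bcl3 it was 2.76 ± 0.54 (SE of the blocked limma fit, adjusted p = 0.420). No member passed, and limma called 0% of probes with the block (372 at an unadjusted p under 0.05, Bcl3 the only member among them) and 0% without it (64 such probes, no member).

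Time was compared within each stimulus. Day 1 holds mouse 1 alone. With the block the time estimate is adjusted by a mouse difference averaged over both stimuli, so mouse 2 enters it too, and without the block it includes the difference between mice. Both fits take the spread of the single day 1 samples to be that of day 3, which was not tested. With the block, 2.91% of probes passed from day 1 to day 3 with control Ig and 3.03% with Delta4-Ig, and no member passed in either. At an unadjusted p under 0.05 the blocked fit had 1 member with control Ig, Nfkb2, and 4 with Delta4-Ig, namely Bcl3, Tnfaip3, Relb and Nfkbib. Of all 10744 detected probes, 1841 with control Ig and 1859 with Delta4-Ig had such a p in that fit. Without the block limma called 0% of probes in both, with 647 and 902 at an unadjusted p under 0.05, of which 0 and 3 were members.

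Bcl3 differed between days by -0.85 ± 0.41 with control Ig and by 1.91 ± 0.41 with Delta4-Ig (SE of the blocked limma fit, adjusted p = 0.358 and 0.0603). Tnfaip3 differed by 0.93 ± 0.43 with control Ig and 1.82 ± 0.43 with Delta4-Ig (adjusted p = 0.330 and 0.0766). Both passed with Delta4-Ig when detection was required on all 8 arrays (limma adjusted p = 0.0298 for Bcl3 and 0.0401 for Tnfaip3) and with 75th percentile scaling (0.0208 and 0.0252). In mouse 1 alone the differences were -0.81 and 1.86 for Bcl3 and 1.05 and 1.69 for Tnfaip3. The blocked Nfkb2 estimates were 1.49 under control Ig and 0.03 under Delta4-Ig (limma adjusted p = 0.208 and 0.988), while mouse 1 alone differed by 1.15 and 0.37. Relb was lower at day 3 under both stimuli, by estimates of -0.68 and -1.06, as was Rela, at -0.62 under each, and none of these passed. Nfkbia stood higher at day 3 under both, at 0.91 and 0.69. For Rel and Nfkbib with control Ig and Nfkb2 with Delta4-Ig, the sign depended on the block: -0.72, -0.40 and -0.49 without it, and 0.12, 0.10 and 0.03 with it.

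**Figure D4:**
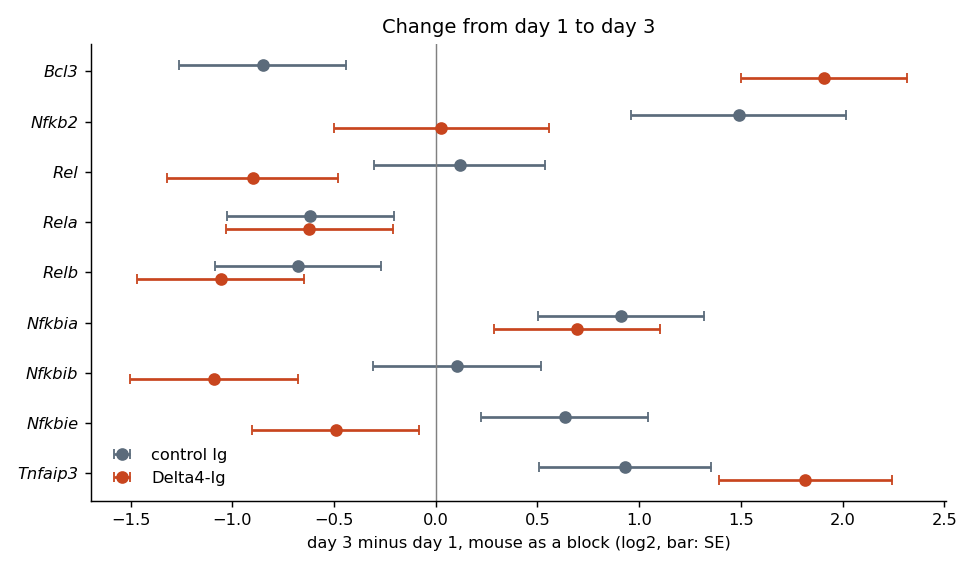
Day 3 minus day 1 on the log2 scale for each member under each stimulus, from the blocked fit. Bars are SE. Bcl3 lies at -0.85 with control Ig and at 1.91 with Delta4-Ig, and Rela at -0.62 under both.

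Other genes of the pathway were read from 4 lists. Of 15 detected genes of upstream signalling 0 passed at day 3 with the block, and the median difference was 0.19, with single values from -0.25 to 0.96. Malt1, a protease that acts between the T cell receptor and NF-kB, differed by 0.83 in mouse 1 and by 1.09 in mouse 2, while its partner Bcl10 differed by -0.25. Traf2, an adaptor of TNF receptors, differed by 0.26, with 0.49 in mouse 1 and 0.03 in mouse 2. It was detected on 2 of 3 control Ig arrays at day 3 and read 6.15 in each mouse with control Ig. Birc2, a ubiquitin ligase, differed by 0.48, with opposite signs in the mice. Among 15 detected genes of other inhibitors and feedback 0 passed, with a median of 0.19. Peli1, a ubiquitin ligase that restrains c-Rel in mouse T cells, had the largest difference of this list, 1.18 ± 0.31 (SE of the blocked limma fit, adjusted p = 0.204). Nlrc3 at 0.97, Tnip2 at 0.94 and Otud7b, a deubiquitinase of TRAF3, at -0.97 did not pass.

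Of 25 detected NF-kB target genes 1 rose, 0 fell and 24 did not pass with the block. Over all detected probes 0.465% passed higher and 0.298% lower. The targets were lower in both mice for 14 of the 25, against 31.5% of all detected probes, with a median of -0.38 against -0.05. In mouse 1 at day 1 their median difference was -0.30, against 0.01 for all detected probes. The list was chosen with earlier results of these data known, so these shares and medians are a description and not a test. The gene that rose was Ier3, an early response gene of stress and survival, detected on 7 of 8 arrays. At day 1, in mouse 1 alone, Ier3 went the other way, which was not tested. There it read 6.72 with control Ig and 5.77 with Delta4-Ig, a difference of -0.95. It read 8.67 and 10.40 in mouse 1 and mouse 2 with control Ig at day 3 and 10.81 and 12.36 with Delta4-Ig, each mouse 1 value being the mean of 2 arrays. The samples did not overlap, and the difference of 2.04 ± 0.31 (SE of the blocked limma fit, adjusted p = 0.0420) was 2.13 in mouse 1 and 1.96 in mouse 2. Without the block the limma adjusted p = 1, and the blocked call did not hold without background correction (adjusted p = 0.113) or without the detection filter (adjusted p = 0.300). With 1 day 3 sample left out and no block, the Ier3 difference ran from 1.18, without control Ig mouse 1, to 2.91, without control Ig mouse 2, and was 1.27 without Delta4-Ig mouse 2. None of these passed.

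Csf2, which encodes the cytokine GM-CSF, had the most negative value, -3.52 ± 0.80, made of -1.54 in mouse 1 and -5.50 in mouse 2 (SE of the blocked limma fit, adjusted p = 0.136). The survival genes Bcl2l1, which 2 of 3 day 3 arrays with Delta4-Ig detected, and Bcl2a1d, one of several near-identical copies whose probes may cross-hybridise, differed by -1.48 and -1.38 without passing (adjusted p = 0.111 and 0.139). Of 8 detected receptor genes 0 passed, with a median of 0.26. Icos, a costimulatory receptor, differed by 1.41 in mouse 1 and by 1.89 in mouse 2 (limma adjusted p = 0.0922). Cd28 at 0.68, Cd27 at 0.37 and Cd40, detected on 2 of 3 arrays of each stimulus, at -1.24 did not pass. Cd40 read 9.09 with control Ig and 7.08 with Delta4-Ig in mouse 1. In mouse 2 it read 5.34 and 4.87, near the column median of 5.28. Its difference was -2.01 in mouse 1 and -0.48 in mouse 2.

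**Figure D5:**
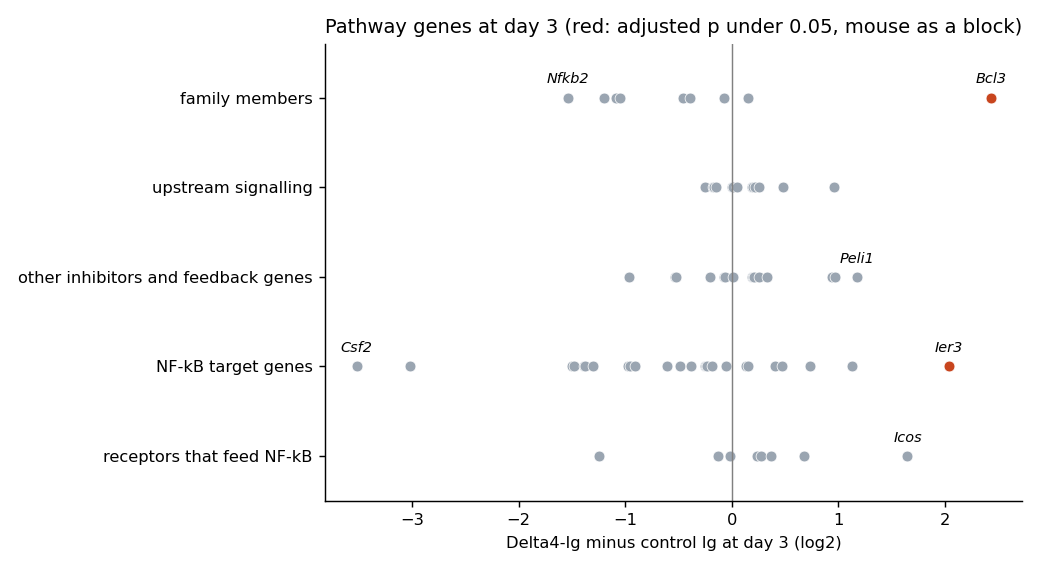
Difference between Delta4-Ig and control Ig at day 3 on the log2 scale for each detected gene, in the family itself and in 4 lists of pathway genes. Red points passed in the blocked fit: Bcl3 at 2.43 and Ier3 at 2.04. The NF-kB target genes spread from -3.52 to 2.04.

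The genes with the pattern nearest to that of Bcl3 were found by the mean absolute difference between profiles over the 6 samples, each centred on its own mean, among 7504 detected genes. They were Mboat2 (0.295 log2 units), Tha1 (0.319), Arfgap3 (0.319), Rnf208 (0.325) and Ddit3 (0.334). Between the stimuli at day 3, Tha1, a threonine aldolase gene, differed by 2.90 on the log2 scale, with 2.79 in mouse 1 and 3.01 in mouse 2. Rnf208 and Arfgap3 each differed by 1.87, Mboat2 by 1.76 and Ddit3, a transcription factor gene of cell stress, by 1.53. The day 3 samples of Ddit3 overlapped, as mouse 2 with control Ig lay above mouse 1 with Delta4-Ig, and those of the other 4 genes did not. Mboat2 and Arfgap3 were each detected on 1 of the 4 control arrays, so their control levels are partly background. These genes were picked for likeness to Bcl3, so their day 3 differences are a description, with no test.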

How the data were processed

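The authors deposited a table with an intensity per probe and array on a linear scale, not normalized, and a detection p-value for each. They also deposited log2 values of the same arrays with no stated scale. These differed from neqc of limma 3.58.1 (R 4.3.3, offset 16), run on the deposited intensities, by at most 0.0417, and each column had a median of 5.28. They were read as background-corrected, quantile-normalized log2 intensities and used for all results. GenomeStudio and limma are named, without roles or versions, per the submitters' processing notes.

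Probes with a detection p-value under 0.01 on at least 2 of 8 arrays were kept, 10744 of 25697. The annotation named 1 gene for 23978 probes and none for 1719. A gene was represented by its detected probe with the highest mean. Technical arrays were averaged. Then limma's lmFit and eBayes were fitted to all kept probes with 4 groups, and p-values were adjusted by Benjamini-Hochberg with a threshold of 0.05. The spread comes from day 3, with 2 residual and 3.11 prior degrees of freedom, the prior being the spread that limma shares over probes. The second fit held the mouse as a block, with 1 residual and 6.16 prior degrees of freedom, since the labels give same-numbered samples 1 animal. The SE of that fit thus rests mostly on the spread shared over probes. Differences between the mice correlated at r = 0.607 between the stimuli across probes, which are not independent. Rose and fell refer to the blocked fit.

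Named were all members, pathway genes past the threshold with the block, the 4 smallest p-values per list, and the 5 genes nearest to Bcl3. Members and lists were chosen with earlier results of these data known. The number of arrays limits the precision. Alternatives were other background corrections, scalings, filters, technical arrays and left-out samples.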

Additional observations from a re-analysis of the deposited data

How the results depend on the processing

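With the mouse as a replicate block, 1 member passed at day 3 instead of 0, Bcl3 at 2.43, with neqc recomputed also 2.43. The block with an offset of 50 gave 1 member and Bcl3 at 2.27, with 75th percentile scaling 1 and 2.37, and with detection on all 8 arrays 1 and 2.43. The blocked count of all probes was 82, 76, 53, 264 and 32 in these settings, and 0 without background correction and without the filter, where Bcl3 was not called. From day 1 to day 3 with Delta4-Ig the block with 75th percentile scaling and with detection on all 8 arrays gave 2 members. The other counts of members were 0 under every alternative run. Counts of all probes moved more: with the block, 0 to 676 passed over time with control Ig, 0 to 760 over time with Delta4-Ig and 0 to 24 for the interaction, each highest with 75th percentile scaling. Leaving out 1 day 3 sample in turn, without the block, gave Bcl3 differences of 1.68 to 3.19, none past the threshold, and 0 to 13 probes called, the 13 without control Ig mouse 2. It called 0 to 9 probes over time with control Ig and 0 to 46 with Delta4-Ig, the 46 whichever control Ig sample was left out. Day 3 differences then ran from -2.40 to -0.68 for Nfkb2, -2.14 to -0.26 for Rel, -1.62 to -0.47 for Nfkbib and -1.60 to -0.57 for Nfkbie, each lowest without Delta4-Ig mouse 1 and nearest 0 without Delta4-Ig mouse 2. The lone sample left in a group is assumed to vary like the others. With the block such a fit has no residual degrees of freedom and was not run. With the block and its variants Nfkb2 over time with Delta4-Ig was 0.03, 0.04, 0.05 or 0.09, Rel over time with control Ig 0.01, 0.07, 0.12 or 0.13, and Nfkbib 0.01, 0.06, 0.07 or 0.10. Rela at day 3 was 0.01 with the second array of mouse 1 alone. With samples left out, the ranges at day 3 were -0.98 to 0.06 for Nfkbia and -0.24 to 0.55 for Tnfaip3. Over time with control Ig they were -0.81 to 0.53 for Bcl3, -0.12 to 0.91 for Nfkbia, -0.24 to 0.58 for Nfkbie, -1.46 to 0.02 for Rel and -0.84 to 0.03 for Nfkbib, and with Delta4-Ig -0.34 to 0.69 for Nfkbia and -1.34 to 0.37 for Nfkb2. The cause was not tested. Leaving aside Bcl3 at day 3, given above, 471 values of single genes under alternatives kept their direction and side of the threshold, 32 turned sign and 8 came to pass. Without background correction the day 3 differences were -1.34 for Nfkb2, -0.77 for Rel, -0.50 for Nfkbib and -0.79 for Nfkbie. No member had a second detected probe to compare. The Ier3 settings were added after the data were seen.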
